A study of Mus musculus with 14 samples.

Results

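KO and WT cells of 2 single-cell plates, 352W and 353W, are described here gene by gene. They were chosen by plate, by the KO or WT start of each cell's name in the count tables, and by a minimum of 500 counts in the well. This left 344 cells of 384 wells, out of 716 kept cells of 768 wells on all 4 plates of the series: 95 WT and 74 KO cells in plate 352W, and 95 WT and 80 KO cells in plate 353W. Immunoglobulin genes (symbols starting Igh, Igk or Igl, and Jchain, 58 genes) were left out, and counts were summed per plate and genotype, which gave 4 sums.

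The study concerns haematopoietic stem cells (HSCs) of mice lacking Phf19, and holds 14 samples of chromatin and RNA. The plates were made by MARS-Seq, which sorts single cells into wells and counts 3' tags of transcripts with molecular identifiers. Cells came uncultured from bone marrow depleted of lineage-positive cells, and the cell type label is HSC, CD150 positive and CD48 negative. The labels give no genotype, strain, age or animal for a plate; the series text says that KO stands for mice without PHF19 and that its other samples use floxed controls, and whether the WT cells are such controls is not stated. In each plate WT cells occupied wells 1 to 96 and KO cells wells 97 to 192, so that genotype and well range cannot be told apart. No label says whether plates or genotypes stem from different animals. The p-values thus reflect the spread among 4 sums, with each gene's spread drawn towards that of all tested genes, and nothing more. That spread may be technical.

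Phf19 is an accessory subunit of Polycomb repressive complex PRC2, which places trimethyl marks on lysine 27 of histone H3 and keeps genes silent. PRC2 and its partner PRC1 hold lineage genes in check in blood stem cells. HSCs at the top of the system are mostly quiescent, and their multipotent progeny begin to express genes of the lymphoid, myeloid or megakaryocyte lines at low level before they commit.

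Phf19 itself had 0 and 1 counts in WT and KO cells of plate 352W and 5 and 0 in plate 353W. Tags come from the transcript's 3' end, which the deletion may leave in place, and these counts therefore check no genotype. The transcripts did not match the sort label in these plates. Slamf1, which encodes CD150, had 0 and 1 counts in WT and KO cells of plate 352W and 0 and 0 in plate 353W. Cd48, which should be absent, had 62 and 49 counts in plate 352W and 24 and 11 in plate 353W. Flt3, a cytokine receptor found on multipotent and lymphoid progenitors, had 117 and 81 counts, then 87 and 59. Of 33 HSC markers, 28 to 31 had a count in each sum, Hlf, Mecom and Meis1 among them. The list summed to 3962 to 4452 plain CPM, the count scaled to a common total of all counts in the sum, immunoglobulin included. In plates 350W and 351W of the series, which share the label, the same list summed higher, to 6049 to 6770 plain CPM. Members differed. Hoxb5 was near the floor in all plates, with no count in plates 352W and 353W. It had 2 and 0 counts in WT and KO cells of plate 350W and 0 and 6 in plate 351W. Cd34, also on the list, had 99 and 54 counts, then 176 and 139, against 7 to 13 per sum in plates 350W and 351W. A count of 0 in a sparse assay does not show that a protein is missing, and the cells are called by plate and genotype below.

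KO wells held fewer counts. The minimum of 500 counts left out 1 WT and 22 KO wells in plate 352W, and 1 WT and 16 KO wells in plate 353W. Median counts per kept cell were 2920 in WT and 2552.5 in KO cells of plate 352W, and 5006 and 4483.5 in plate 353W, ratios of 0.874 and 0.896. Without immunoglobulin the sums held 311198 and 217781 counts in plate 352W, and 508818 and 381862 in plate 353W. In bulk sums, fewer cells that express a gene and less RNA per cell cannot be told apart. Immunoglobulin counts made up 2.05% and 1.38% of the WT and KO sums of plate 352W, and 0.386% and 0.116% in plate 353W, and 8 wells held more than 100 of them: in plate 352W these were 4 WT and 3 KO wells, and in plate 353W a WT well. No cell name was shared between tables, and no cells had identical counts.

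Bach2 had the largest difference shared by both plates among genes of 60 or more counts, and fell in KO cells. Bach2 encodes a transcriptional repressor of the BACH family that steers progenitors towards lymphoid fates. Its summed counts were 60 in WT and 1 in KO cells of plate 352W, and 137 in WT and 14 in KO cells of plate 353W. As CPM, counts scaled to a common total of the tested genes with TMM factors, this was 233 and 5.63 in plate 352W, and 288 and 39.7 in plate 353W. Both WT sums were far above both KO sums. The log2 fold change was -3.30 (SE 0.36, edgeR quasi-likelihood test with the plate as a block, adjusted p = 2.09e-07). With 4 sums and the plate as a block, each gene had 1 degree of freedom of its own for the spread. The quasi-likelihood fit drew that spread towards the spread of all tested genes. The call turned on settings: Bach2 passed in 8 of 13 alternatives with a test. Adjusted p (edgeR or DESeq2) ran from 3.63e-17 to 0.9998, and was 0.592 in edgeR without the 8 wells rich in immunoglobulin. The log2 fold change of Bach2 stayed between -3.72 and -3.29 in the alternatives with a test. It ran from -4.60 to -2.68 when settings without a test were included.

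**Figure D1:**
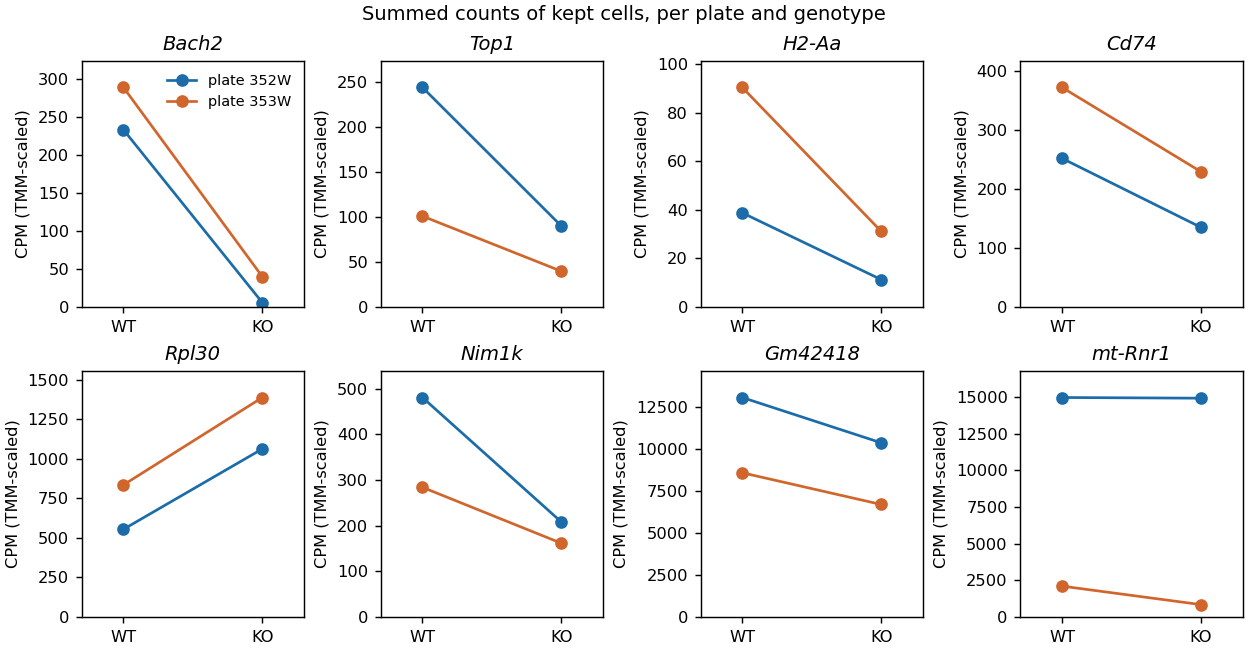
Level of 8 genes in CPM (linear axes from 0) in the sum of WT cells and the sum of KO cells of each plate, with 1 sum per point and a line joining both sums of a plate. Bach2 went from 233 to 5.63 CPM in plate 352W and from 288 to 39.7 in plate 353W, while mt-Rnr1 was level in plate 352W.

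The difference in Bach2 was spread over cells. A Bach2 count was found in 22 of 95 WT cells of plate 352W (23.2%, exact 95% Clopper-Pearson interval 15.1% to 32.9%) and in 1 of 74 KO cells (1.35%, 0.0342% to 7.30%). In plate 353W it was found in 47 of 95 WT cells (49.5%, 39.1% to 59.9%) and in 12 of 80 KO cells (15%, 7.998% to 24.7%). No single WT well held more than 7 Bach2 counts. After thinning to 1500 counts, which kept 94 WT and 64 KO cells of plate 352W and 93 and 76 of plate 353W, the shares were 16.0% and 1.56% in plate 352W, and 34.4% and 5.26% in plate 353W. These intervals cover counting error only.

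Bach2 was low in KO cells with and without a Flt3 count. Among cells with a Flt3 count, Bach2 had 44 counts in 59 WT cells and 0 in 48 KO cells of plate 352W, and 65 counts in 40 WT cells and 9 in 29 KO cells of plate 353W. Among the other cells it had 16 counts in 36 WT and 1 in 26 KO cells, then 72 counts in 55 WT and 5 in 51 KO cells. The difference also held in both parts of each range of well numbers. The WT level, as plain CPM outside immunoglobulin, was 167 and 220 in the lower and upper wells of plate 352W against 9.55 and 0 in the KO wells. In plate 353W it was 255 and 284 against 24.2 and 51.3. Plates 350W and 351W, which share the label, had Bach2 ratios of similar size, with log2 ratios of -3.31 and -3.04. Their marker counts differed from those of plates 352W and 353W. Their 4 sums held 1 to 16 counts of Slamf1, 0 to 1 of Cd48, 0 to 12 of Flt3 and 0 of Mpo, the myeloid granule enzyme, which had 65 and 35 counts in WT and KO cells of plate 352W and 98 and 75 in plate 353W.

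A promoter window of Bach2 is printed because this gene carries the main difference. The window of Top1 is printed because the gene ranked next by p among genes lower in both plates outside the called ones. The window of H2-Aa is printed for the MHC class II genes described below. All are RefSeq windows of 300 bases around 1 annotated start, build GRCm38.p6, written along the gene's strand. Any other start of these genes was not examined. In the first pair, capitals mark CG, the dinucleotide that is dense in promoters bound by Polycomb. Bach2 lies on chr4:32417185-32417484 (plus strand) and Top1 on chr2:160645647-160645946 (plus strand).
Bach2: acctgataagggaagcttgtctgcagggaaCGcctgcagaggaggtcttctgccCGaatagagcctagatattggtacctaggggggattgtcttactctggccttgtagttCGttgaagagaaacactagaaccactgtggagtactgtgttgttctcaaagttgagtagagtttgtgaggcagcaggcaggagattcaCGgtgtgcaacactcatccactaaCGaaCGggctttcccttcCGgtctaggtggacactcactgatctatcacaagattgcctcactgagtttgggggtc
Top1: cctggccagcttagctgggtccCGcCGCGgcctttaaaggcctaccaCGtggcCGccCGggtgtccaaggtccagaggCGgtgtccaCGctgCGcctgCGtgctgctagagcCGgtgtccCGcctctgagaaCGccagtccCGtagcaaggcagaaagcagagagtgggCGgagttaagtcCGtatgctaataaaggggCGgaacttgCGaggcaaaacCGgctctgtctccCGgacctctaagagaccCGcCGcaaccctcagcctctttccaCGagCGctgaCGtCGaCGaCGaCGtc
The Bach2 window held 7 CG, the median of the table's promoters, and 52.1% of them held as many or more. The Top1 window held 29, a number that 12.9% of promoters reach or pass. Among the 5074 tested genes with a window the median was 23 CG, below the number for Top1 and above that for Bach2. In the H2-Aa window, chr17:34287774-34288073 (minus strand), capitals mark CCAAT or its reverse complement ATTGG, the Y box read by the factor NF-Y in class II promoters.
H2-Aa: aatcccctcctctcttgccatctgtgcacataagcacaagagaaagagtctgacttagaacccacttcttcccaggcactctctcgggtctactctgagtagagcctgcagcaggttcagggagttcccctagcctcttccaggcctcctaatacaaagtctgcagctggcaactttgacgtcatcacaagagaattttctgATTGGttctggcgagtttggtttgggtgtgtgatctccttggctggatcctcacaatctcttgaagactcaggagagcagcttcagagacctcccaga
It held 1 such match, and 37.4% of all promoters of the same length hold 1 or more. A match of letters is a description and shows no binding.

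The test over all genes called few others. Of 7657 genes, 7 (0.0914%) passed at an adjusted p below 0.05, 1 higher in KO cells (0.0131%) and 6 lower (0.0784%), and 381 (4.98%) had an unadjusted p below 0.05, of which 181 were higher (2.36%) and 200 lower (2.61%). The number called ran from 0 to 17 over the alternatives, and was 1, Bach2, with DESeq2. It was 0 without the 8 wells rich in immunoglobulin, and also with cells of 1000 or more counts, with DESeq2 size factors, without the plate block and with cells thinned to 1500 counts. Rpl30, a protein of the large ribosomal subunit, was the gene that rose. It had 143 and 189 counts in WT and KO cells of plate 352W and 397 and 490 in plate 353W. Its level was 555 and 1063 CPM, then 836 and 1389 CPM, higher in KO in each plate. On the log2 scale Rpl30 rose by 0.83 (edgeR adjusted p = 7.70e-04, SE 0.14), passed in 6 of 12 alternatives, and was also higher in plates 350W and 351W, by 0.52 and 0.86. Reads of ribosomal protein genes can be shared with near-identical copies, so this value is uncertain. Another named gene, Gm10288, had 69 and 74 counts in WT and KO cells of plate 352W and 176 and 219 in plate 353W. Its log2 fold change was 0.70 (edgeR adjusted p = 0.148, not called). In plates 350W and 351W its log2 ratios were 0.50 and 0.48.

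Nim1k and Gm42418 were lower in KO cells of both plates. Nim1k, which encodes a protein kinase, had 124 and 37 counts in WT and KO cells of plate 352W and 135 and 57 in plate 353W. Nim1k fell by 0.99 on the log2 scale (adjusted p = 0.0310 in edgeR, SE 0.21) and had ratios of -0.23 and -0.92 in plates 350W and 351W. The highest WT well held 37 and 43 of the Nim1k counts in plates 352W and 353W, and the gene passed in 3 of 13 alternatives. Gm42418, an abundant predicted transcript, had 3368 and 1843 counts in plate 352W and 4078 and 2363 in plate 353W. Its log2 value fell by 0.35 (edgeR adjusted p = 0.0310, SE 0.0731), and it passed in 4 of 13 alternatives. Plates 350W and 351W gave Gm42418 ratios of 0.11 and -0.78, so that its direction was not common to all 4 plates.

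The remaining 3 calls differed between the plates. mt-Rnr1, the mitochondrial 12S ribosomal RNA, had 3860 and 2653 counts in WT and KO cells of plate 352W, where its log2 ratio was -0.0045, and 999 and 297 counts in plate 353W, where its log2 ratio was -1.31. Over both plates it was at -0.63 (SE 0.13, adjusted p = 0.0310 in edgeR) and passed in 4 of 12 alternatives. Gm30211, a non-coding gene next to the immunoglobulin kappa constant gene in the RefSeq annotation (GRCm38.p6), had 1480 and 814 counts, then 875 and 206. Of the 875 WT counts of Gm30211 in plate 353W, 579 came from 1 well. Its log2 fold change was -0.96 (edgeR adjusted p = 3.02e-04) and -0.08 without the 8 wells rich in immunoglobulin. 2010309G21Rik had 192 and 17 counts in plate 352W, 153 of them in 1 WT well, and 0 and 2 counts in plate 353W, which are opposite directions. Its fitted log2 value was -2.71 (SE 0.40, adjusted p = 1.38e-04 in edgeR). It was -0.18 without the 8 wells rich in immunoglobulin and 0.58 without the highest well of each sum.

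Over all tested genes the differences of both plates had almost no correlation, and more genes had the same sign among the most abundant ones. Of the 7657 genes, 2053 (26.8%) were higher in KO in both plates and 1878 (24.5%) lower in both, so that 51.3% had the same sign. Across genes, which are not independent replicates, the log2 ratios of the plates had a Pearson correlation of 0.029, and of 0.010 over 5125 genes of 60 or more counts. Among 307 genes of 500 or more counts, 64.2% had the same sign, with a correlation of 0.120. For the 52 ribosomal protein genes among them these values were 75% and 0.505. A difference of 1 or more on the log2 scale in both plates was found for 23 genes upward (0.3%) and 44 downward (0.575%). Among genes of 60 or more counts there were 3 upward (0.0585%) and 10 downward (0.195%).

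**Figure D2:**
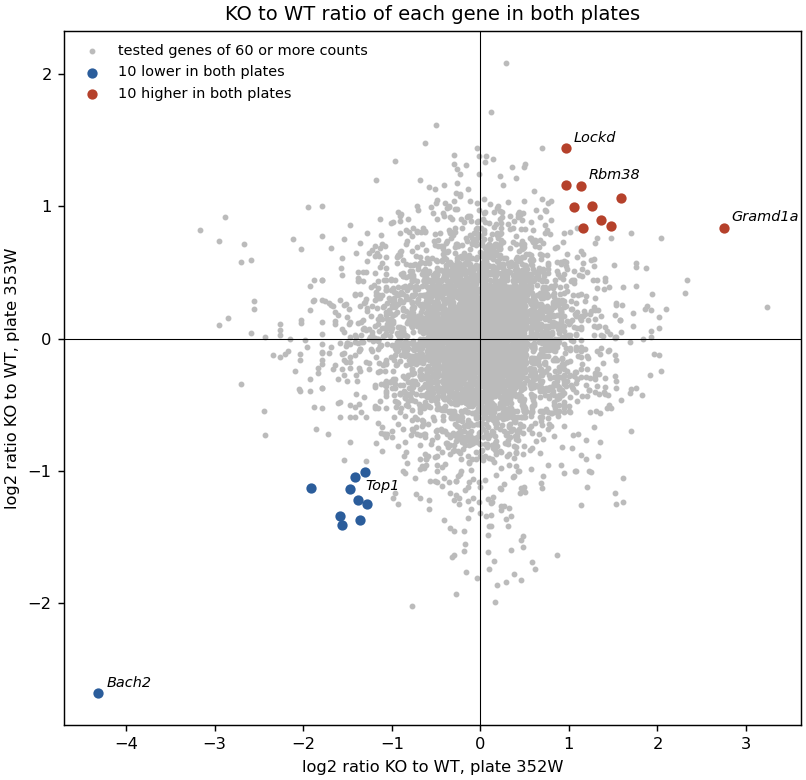
Log2 ratio of KO to WT in plate 352W (horizontal) and plate 353W (vertical) for each tested gene of 60 or more counts, with the 10 highest and 10 lowest shared ratios coloured. Bach2 lies away from the other genes at -4.32 and -2.68, and the cloud of genes shows no slope, with a correlation of 0.010.

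The 10 genes lowest in both plates, ranked by the smaller absolute log2 ratio of both plates, were Bach2, Vta1, H2-Aa, Mpp6, Ipo7, Top1, Rilpl2, Cdca7l, Tes and Dnaja2. They were chosen for these ratios, which are therefore a description. Top1, the enzyme that relaxes supercoiled DNA, had 63 and 16 counts in WT and KO cells of plate 352W and 48 and 14 in plate 353W, or 244 and 90.0 CPM, then 101 and 39.7 CPM. Its WT levels lay above its KO levels in each plate, which the choice of genes had fixed. Across the plates the lower WT level was 101 CPM and the higher KO level 90.0 CPM. How many of all genes were apart in this way was not counted. For Top1 this amounted to -1.39 on the log2 scale (edgeR adjusted p = 0.102, SE 0.33), and Top1 passed with no filter on cells (edgeR adjusted p = 0.0122) and with library totals (0.0129). Vta1, of the endosomal sorting machinery, had 29 and 6 counts, then 30 and 7. Ipo7, a nuclear import receptor, had 41 and 11, then 17 and 4. Dnaja2, an HSP70 co-chaperone, had 31 and 8, then 60 and 21. Cdca7l, a chromatin-associated MYC partner, had 10 and 1, then 39 and 12. Tes, a focal adhesion protein, had 22 and 5, then 45 and 15. Mpp6, a membrane scaffold protein, had 25 and 5, then 25 and 6, and Rilpl2, which acts in ciliary transport, had 19 and 4, then 45 and 14. Their log2 fold changes were -1.69 (Vta1), -1.45 (Ipo7), -1.20 (Dnaja2), -1.53 (Cdca7l) and -1.30 (Tes), with none called. Just inside and outside this choice lay Dnaja2 at -1.01 and Vav3 at -0.98.

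The 10 genes highest in both plates were Rbm38, Txndc12, Dmac1, Mat2b, Lockd, Gm16477, Plekhj1, Cep131, Gramd1a and Gm27021. Rbm38, an RNA-binding protein and p53 target, had 9 and 15 counts in WT and KO cells of plate 352W and 28 and 49 in plate 353W. Txndc12, a thioredoxin-like protein of the endoplasmic reticulum, had 11 and 25, then 21 and 35. Dmac1, an assembly factor of respiratory complex I, had 19 and 33, then 24 and 38. Lockd, a non-coding RNA downstream of the cell cycle inhibitor gene Cdkn1b, had 14 and 20, then 15 and 34. Gramd1a, a sterol transfer protein, had 4 and 25, then 25 and 35. The other 5 had 0 to 24 counts in a WT sum and 2 to 34 in a KO sum. No gene of this group was called, at edgeR adjusted p from 0.333 to 0.989. The 10th and 11th values were 0.839 for Gm27021 and 0.838 for Gm8182.

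Plates 350W and 351W were not used to choose these 20 genes. Of the 10 lower genes, 5 were lower in both of them, namely Bach2, Top1, H2-Aa, Cdca7l and Tes, against 26.8% of genes of 60 or more counts. Top1 had log2 ratios of -0.92 and -1.45 there, Cdca7l of -1.30 and -0.94 and Tes of -1.06 and -0.34, while H2-Aa had -0.13 and -0.17. Of the 10 higher genes, 4 were higher in both, namely Rbm38, Txndc12, Dmac1 and Lockd, against a background of 24.3%. Lockd was at 1.07 and 0.78 there, and Rbm38 at 0.01 and 0.30. The edgeR test of a different KO effect in the plate pairs called 0 of 6614 genes (215, or 3.25%, at an unadjusted p below 0.05), and 0 also under 9 other settings and without plate 352W or 353W. A test that calls nothing does not show that the effects were equal.

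**Figure D3:**
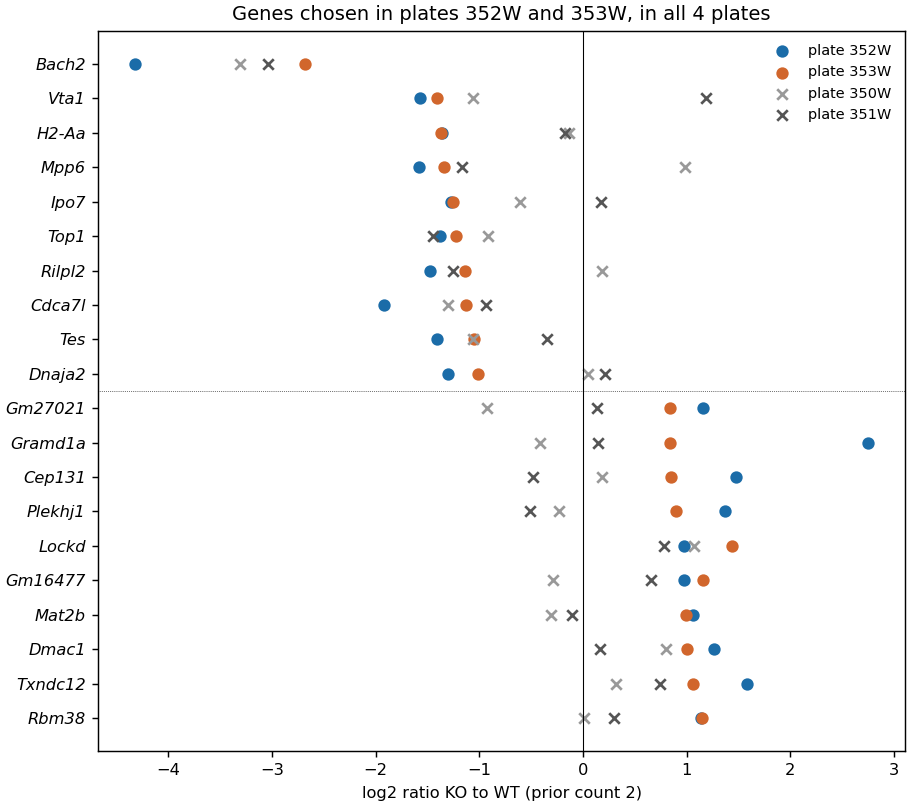
Log2 ratio of KO to WT of the 10 genes lowest and 10 genes highest in both of plates 352W and 353W (dots), with their ratios in plates 350W and 351W (crosses), 1 row per gene. Bach2 is between -4.32 and -2.68 in 4 of 4 plates, and 4 of the 10 higher genes have both crosses above 0.

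Some MHC class II genes had lower values in KO cells of both plates, without a call. Class II molecules present peptides to helper T cells, and Cd74 is their chaperone. Cd74 had 65 and 24 counts in WT and KO cells of plate 352W and 177 and 81 in plate 353W, -0.77 on the log2 scale (edgeR adjusted p = 0.339, SE 0.21). H2-Aa had 10 and 2 counts, then 43 and 11 (-1.58, SE 0.54, edgeR adjusted p = 0.622). H2-Eb1 had 16 and 2 counts, then 33 and 8 (-1.85, SE 0.56, edgeR adjusted p = 0.450). H2-Ab1 did not share this pattern, with 15 and 11 counts, then 25 and 13. H2-DMa, part of the molecule that loads peptides onto class II, had higher values in KO cells of both plates, with 23 and 20 counts, then 98 and 81, and ratios of 0.31 and 0.15. Thus 3 of these 5 genes had lower values in both plates, 1 had higher values in both, and none passed. In plates 350W and 351W, Cd74 had ratios of -0.44 and -0.31, and H2-Eb1 of 0.30 and 0.89. B2m, the light chain of class I, had 1005 and 633 counts, then 574 and 221, ratios of -0.13 and -0.94 (edgeR adjusted p = 0.151). B2m passed in 3 alternatives, at an edgeR adjusted p of 8.92e-04 with no filter on cells, 0.00103 with library totals and 4.70e-05 with no filter on genes. The class I heavy chains H2-K1 and H2-D1 were near level, at -0.06 and 0.22. Over the list, 8 of 22 tested members (36.4%) were higher in both plates and 7 (31.8%) lower in both, beside 26.8% and 24.5% of all genes, and medians were -0.04 and 0.09 in plates 352W and 353W. Cd74 and H2-Eb1 were singled out after their values were seen.

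Markers of B and plasma cells also had lower summed values in KO cells, without a direction shared by the tested members. Outside immunoglobulin, 11 and 10 of 13 such markers had a count in WT and KO cells of plate 352W, and 10 and 9 in plate 353W. They summed to 261 and 181 plain CPM of all counts, then 280 and 194, with the 8 wells rich in immunoglobulin included. Cd79a had 3, 1, 1 and 0 counts. The 3 tested members, Prdm1, Xbp1 and Ebf1, had opposite signs in the plates, and 0 were lower in both. In plate 352W the plasma cell gene Mzb1 had 6 and 5 counts in WT and KO cells, and the plasma cell gene Sdc1 had 4 and 0. In plate 353W Mzb1 had 21 and 0 counts, and Sdc1 13 and 2. Xbp1 had 20 and 17 there, and Ebf1 12 and 12. Without the 8 wells rich in immunoglobulin, Cd74 had a log2 fold change of -0.47, H2-Aa of -1.62 and H2-Eb1 of -1.85. The part of those cells in the remaining values was not tested.

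Lymphoid priming genes, which progenitors switch on before they commit to the B or T line, held the called Bach2 and mixed directions otherwise. Of 18 tested members, 1 was higher and 5 were lower in both plates, 27.8% against 24.5% of all genes, and 1 was called, Bach2. Ly6d, a surface marker of early B-lineage progenitors, had 33 and 8 counts in WT and KO cells of plate 352W and 10 and 2 in plate 353W (log2 fold change -1.59, edgeR adjusted p = 0.754). Foxo1, a transcription factor of lymphoid development and quiescence, had 15 and 3, then 21 and 6 (-1.52, edgeR adjusted p = 0.938). Tcf12 and Lef1 completed the 5. In plates 350W and 351W, Foxo1 had ratios of 0.84 and 0.11, Tcf12 of 0.36 and -0.37 and Lef1 of -1.20 and -0.12. Dntt, the polymerase that adds bases to antigen receptor joints, had 28 and 42, then 215 and 164 counts, ratios of 1.08 and 0.04. Flt3 and Satb1 had log2 fold changes of -0.06 and -0.11. Within the BACH and NFE2 family, 1 of 8 tested genes was lower in both plates, Bach2, and Nfe2 and Mafk were higher in both, Nfe2 by 0.57 and 0.27.

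Polycomb genes were thinly counted. Phf19, counted above, did not reach the minimum for a test. Of 8 tested PRC2 subunits, 4 had lower values in both plates (50%, against 24.5% of all genes) and 0 higher, and 0 were called. Rbbp7, a histone-binding subunit, had 88 and 46 counts in WT and KO cells of plate 352W and 78 and 47 in plate 353W (log2 fold change -0.35, not called). Mtf2, the Polycomb-like paralogue of Phf19, had 25 and 6, then 29 and 20 (-0.65). Jarid2 and Aebp2, which define the other form of the complex, had -0.15 and -0.52. The catalytic subunit Ezh2 and its partner Eed were near level at 0.03 and 0.08, and Suz12 had opposite signs in the plates, -0.50 and 1.61. Of 12 PRC1 subunits, 3 were higher (25%, against 26.8% of all genes) and 3 lower (25%, against 24.5%) in both plates. Among the latter was Pcgf5 (18 and 6 counts, then 21 and 6).

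No stem cell or cell cycle gene was called. Of 21 tested HSC markers, 6 were higher (28.6%, against 26.8% of all genes) and 5 lower (23.8%, against 24.5%) in both plates. Their medians were -0.07 and 0.03 in plates 352W and 353W. Hlf, a stem cell transcription factor, had 66 and 35 counts in WT and KO cells of plate 352W and 113 and 65 in plate 353W (log2 fold change -0.37, SE 0.22, not called). Kit was at 0.01 and Ly6a at -0.08. S phase genes had 6 higher (28.6%) and 5 lower (23.8%) in both plates of 21. Genes of G2 and M phase had 11 higher (39.3%) and 6 lower (21.4%) of 28. Of 9 quiescence genes, 0 were higher and 4 lower in both plates (44.4%, against 24.5% of all genes). They were Btg1 (19 and 5 counts, then 21 and 3), Foxo1, Rbl1 and Cdkn1b, and none was called. Btg1, an antiproliferative gene, had ratios of 1.55 and -0.14 in plates 350W and 351W.

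Stress and survival genes gave small counts. Of 14 immediate early genes, 1 was higher and 5 lower in both plates (35.7%, against 24.5% of all genes), with medians of -0.54 and -0.03. Jun, a subunit of AP-1, had 56 and 14 counts in WT and KO cells of plate 352W and 68 and 40 in plate 353W (log2 fold change -0.78, SE 0.30, edgeR adjusted p = 0.867). Junb had 30 and 9, then 34 and 13 (-1.06). Nfkbia, an inhibitor of NF-kappaB, had 19 and 3, then 48 and 27. Among 9 apoptosis regulators 5 were higher (55.6%, against 26.8% of all genes) and 2 lower in both plates (22.2%, against 24.5%), and 0 were called. The lower pair were the death inhibitors Cflar (18 and 1 counts, then 21 and 6) and Birc3 (12 and 1, then 15 and 4). In plates 350W and 351W, Cflar had ratios of 0.65 and 0.11 and Junb of 0.59 and 0.75.

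**Figure D4:**
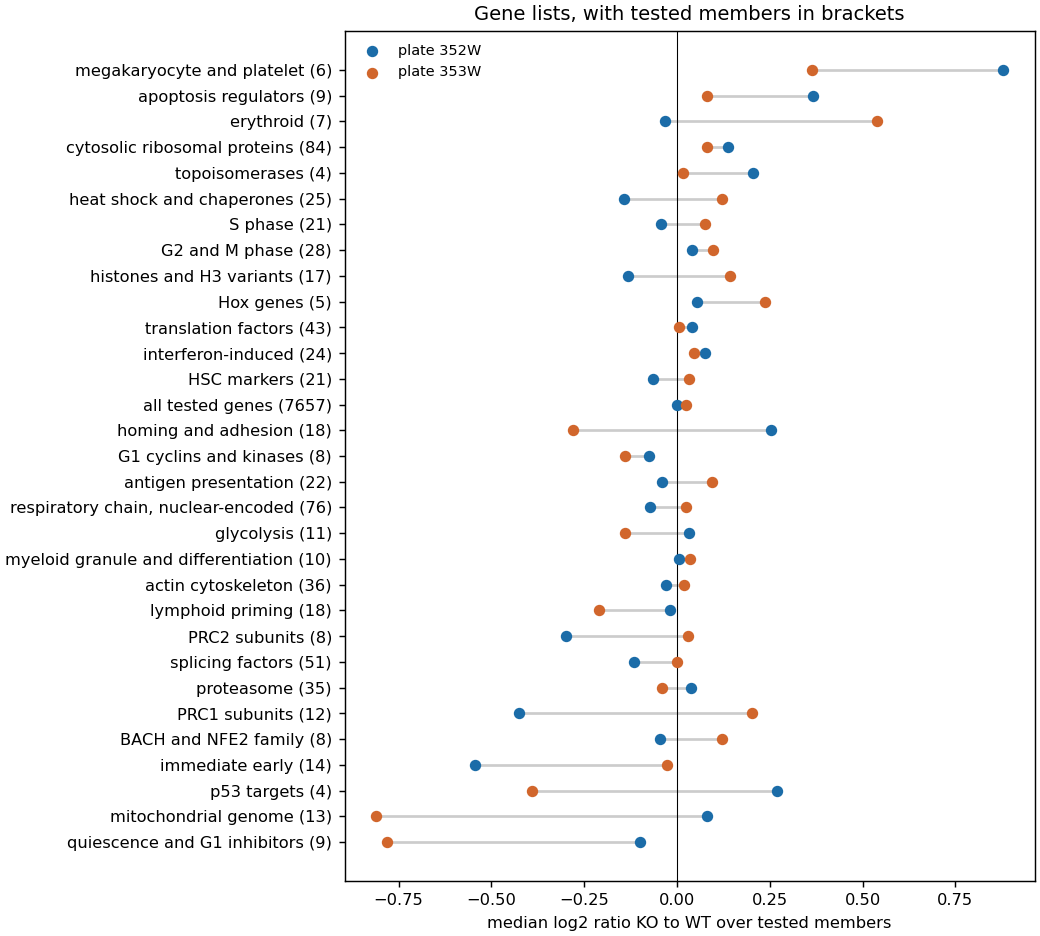
Median log2 ratio of KO to WT over the tested members of each gene list in plate 352W and plate 353W, joined by a grey line, with the number of tested members in brackets. Megakaryocyte and platelet genes are at 0.88 and 0.36, while quiescence genes and the mitochondrial genome are at -0.78 and -0.81 in plate 353W against -0.10 and 0.08 in plate 352W.

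Lineage programmes were thin. Of 6 megakaryocyte and platelet genes 4 were higher in both plates and 0 lower, with medians of 0.88 and 0.36, beside 26.8% of all genes higher and 24.5% lower in both. Fli1, Itga2b and Cd9 were among the 4. In plates 350W and 351W the medians of this list had the opposite sign, -0.32 and -0.52, and none of it was called. Myeloid genes had 4 higher and 2 lower in both plates of 10. Cebpb, a myeloid transcription factor, was among the lower ones, with 16 and 4 counts, then 21 and 8, and log2 ratios of -1.16 and -0.72 in plates 350W and 351W. Of 7 erythroid genes, 1 was higher and 2 lower in both plates, Hbb-bt (19 and 3, then 18 and 6) among the latter. Of 15 markers of neutrophils and monocytes, 6 to 9 had a count in each sum, and of 15 markers of T and NK cells, 5 to 8. Lyz2, a lysozyme of myeloid cells, had 13 and 14 counts in WT and KO cells of plate 352W and 38 and 44 in plate 353W, and the chemokine receptor gene Ccr2 had 16 and 9, then 15 and 12. Lck, a kinase of T cell receptor signalling, had 19 and 17, then 54 and 36, and Nkg7, a gene of cytotoxic granules, had 19 and 12, then 37 and 27. The neutrophil genes S100a8, Ngp and Camp and the T cell genes Cd8a and Trac were at 0 in the 4 sums.

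Ribosomal protein genes had higher values in KO cells, as a small shift shared with other abundant genes. Their share of counts was 9.25% and 9.86% in WT and KO cells of plate 352W and 9.56% and 10.2% in plate 353W. Of 84 tested, 41 (48.8%) were higher and 10 (11.9%) lower in both plates, with medians of 0.14 and 0.08. Among genes of 500 or more counts, 33 of 52 ribosomal protein genes (63.5%) and 111 of 244 others (45.5%) were higher in both plates, with medians of 0.14 and 0.12 against 0.08 and 0.07. Rpl11 had 93 and 92 counts, then 198 and 194, 0.45 on the log2 scale (edgeR adjusted p = 0.758, SE 0.16), and Rplp0 and Rps12 had 0.26 and 0.33. Rps25 had lower values in KO cells, with 260 and 141 counts, then 90 and 39, and log2 ratios of -0.34 and -0.74, and of -0.56 and -1.01 in plates 350W and 351W. Rpl30 alone of this list was called.

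Mitochondrial transcripts had lower values in KO cells of plate 353W and not of plate 352W, with no test within a plate. The genes of the mitochondrial genome took 5.95% and 6.19% of counts in WT and KO cells of plate 352W, and 1.73% and 0.999% in plate 353W. Of 13 tested genes, 12 had lower values in KO in plate 353W, with a median log2 ratio of -0.81, against a median of 0.08 in plate 352W. mt-Rnr2, the 16S ribosomal RNA, had 6092 and 4713 counts, then 3137 and 1327. mt-Co2, a cytochrome oxidase subunit, had 1010 and 755, then 334 and 97. mt-Nd6, encoded on the opposite strand, was the exception in plate 353W, at 0.26. Plates 350W and 351W differed in the same manner, with a share of 2.65% and 2.88% against 0.623% and 0.253%.

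**Figure D5:**
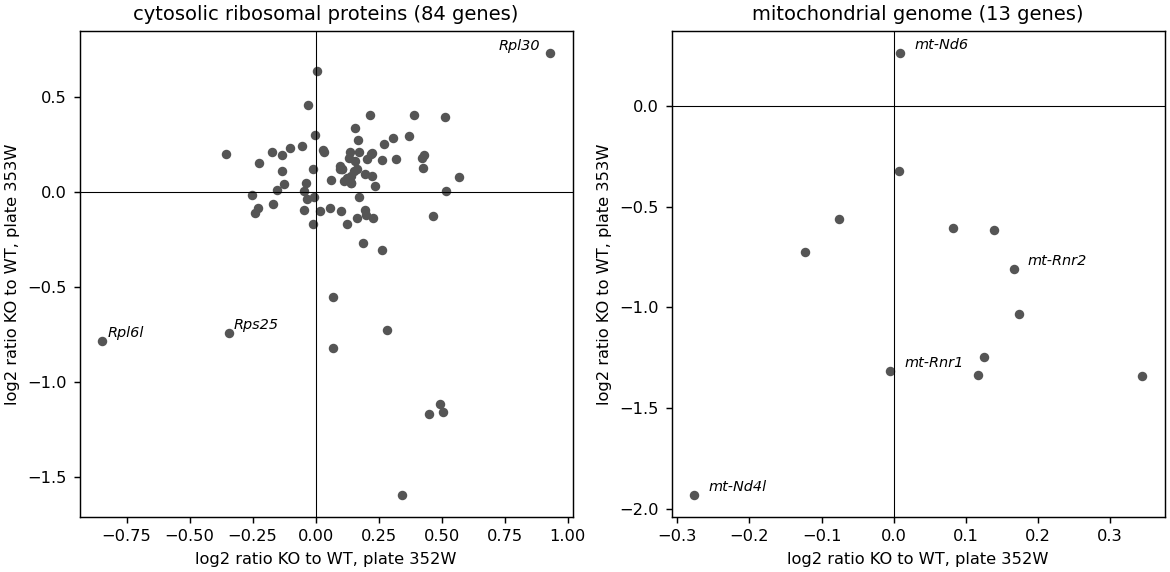
Log2 ratio of KO to WT in plate 352W (horizontal) and plate 353W (vertical) for 84 ribosomal protein genes (left) and 13 genes of the mitochondrial genome (right), 1 point per gene. Of the ribosomal points, 41 of 84 lie above 0 in both plates, and all mitochondrial points but mt-Nd6 lie below 0 in plate 353W.

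Other broad programmes had medians between -0.14 and 0.14 in both plates: nuclear-encoded respiratory chain (76 genes, 19 higher and 21 lower in both), proteasome (35, 8 and 8), splicing factors (51, 13 and 17), translation factors (43, 14 and 10), chaperones (25, 5 and 5), interferon-induced genes (24, 6 and 5) and histones (17, 7 and 4). Hist1h2bc, a replication-linked histone, had 5 and 16 counts in WT and KO cells of plate 352W and 10 and 18 in plate 353W (log2 fold change 1.66, edgeR adjusted p = 0.592). Glycolysis (11 genes, 3 higher and 3 lower in both), actin cytoskeleton (36, 7 and 6), homing and adhesion (18, 5 and 5), Hox genes (5, 3 and 1), p53 targets (4, 1 and 0) and G1 cyclins and kinases (8, 2 and 3) held no called gene. Beside these counts, 26.8% of all tested genes were higher and 24.5% lower in both plates. Of the topoisomerases, Top2a and Top2b had log2 fold changes of 0.12 and 0.39 beside the -1.39 of Top1. Over the 4 most abundant tested members of every list, 123 genes outside the called ones, log2 fold changes ran from -1.55 to 0.92, and 111 were within 0.5 of 0.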

How the data were processed

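The authors deposited 1 table per plate of unnormalized counts, whole numbers for each gene in each well. The submitters' processing notes name GRCm38.p4 and FastQC; aligner and counter: not given in the sources used here. Gene IDs were paired with symbols from the reference table for 25714 of 25832 IDs. Wells of 500 or more counts were kept, without doublet calling, and genotype was read from the WT or KO prefix. Sums per plate and genotype were tested with edgeR 4.0.16 in R 4.3.3 (filterByExpr, TMM, quasi-likelihood, plate as a block, Benjamini-Hochberg over all tested genes, threshold 0.05) and tested on simulated data. The standard error is the fold change on the log2 scale divided by the square root of F, and is too small for genes whose p-value edgeR limits by a Poisson test. Ratios within a plate used a prior count of 2. DESeq2 1.42.0 and other filters and scalings were alternatives. Python 3.11.15 made the sums. Both genotypes of a plate share 1 plate and table, hence the block. Named genes were those called, and the 10 highest and 10 lowest in both plates (60 or more counts). The 4 most abundant of each list, PRC2 subunits and sort markers were also named. So, by symbol, were Bach1, Bach2, Top1, Rpl30 and Gm10288. Other genes were picked from the lists after their values were seen. Members and lists were chosen with earlier results of these data known.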

Additional observations from a re-analysis of the deposited data

Results flagged for a closer look

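Among the 10 lowest and 10 highest genes, 3 had opposite directions in the plate pairs. They were lower or higher in both of plates 352W and 353W and the reverse in both of plates 350W and 351W. Dnaja2 had a log2 fold change of -1.20 against ratios of 0.05 and 0.21, and the edgeR test of the difference gave an adjusted p of 0.999. Mat2b had 1.15 against -0.30 and -0.11 (edgeR adjusted p = 0.999). Plekhj1 had 1.19 against -0.23 and -0.51 (edgeR adjusted p = 0.999). All 3 were chosen for their ratios in plates 352W and 353W.

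Immunoglobulin counts, left out of the comparison, numbered 11956 in the kept wells of plates 352W and 353W, where a floor of 3 counts stands for none. In the WT and KO sums they were 6498 and 3040 in plate 352W, and 1973 and 445 in plate 353W, and plates 350W and 351W held 4 to 15 per sum.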

How the results depend on the processing

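With 1 residual degree of freedom, the number of called genes moved far: from 7 to 16 with no filter on cells, 0 with cells of 1000 or more counts, 11 with immunoglobulin genes kept, 0 without wells of over 100 immunoglobulin counts, 0 with DESeq2 size factors, 17 with library totals, 1 with DESeq2 (Bach2), 13 with no filter on genes, 3 with genes of 20 or more counts, 0 with cells thinned to 1500 counts and 4 without ribosomal and mitochondrial genes; the cause was not tested. Where edgeR called 0, unadjusted p was below 0.05 for 287 (cells of 1000 or more counts), 245 (without immunoglobulin wells), 281 (DESeq2 size factors) and 103 (thinned cells) genes. Without the plate, no replicate block left 0 called genes and 44 at an unadjusted p below 0.05, and the log2 fold changes of Cd48, mt-Rnr2, Ezh2 and Kit were 0.0560, 0.00181, -0.0167 and -0.0435. Genes 1 or more higher in both plates numbered 109 with no filter on genes, 56 with 20 or more counts, 8 with sums thinned and 4 with cells thinned. Those 1 or more lower numbered 251, 85 and 8 with no filter on genes, 20 or more counts and cells thinned. KO to WT ratios of median counts per cell were 0.750 and 0.743 over all wells. A left-out plate leaves 1 sum per genotype and no test of genes; the Bach2 value was then -4.32 (352W alone) and -2.68 (353W alone).

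Direction turned for values near 0 and for 2010309G21Rik, which had 0.14 with DESeq2, 0.92 without replicate 3 (plate 352W) and 0.58 without the highest well of each sum, a setting chosen after seeing the data. Eed had -0.10 with cells thinned. With sums thinned, H2-D1 had -0.0408, Cd48 0.13, mt-Nd6 -0.0535, Ezh2 -0.00263 and Kit -0.10. Ezh2 had -0.00504 with no filter on cells, -0.0147 with cells of 1000 or more counts and -0.0388 with no filter on genes. Kit had -0.000247 with cells of 1000 or more counts, -0.00107 without immunoglobulin wells, -0.0134 with library totals, -0.00829 with DESeq2, -0.0586 with no filter on genes and -0.37 with cells thinned. Ly6a had 0.18 without immunoglobulin wells and 0.52 with cells thinned. The cause was not tested. Low counts limit the values of many named genes, and those of Bach2 in KO cells (1 and 14 counts).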
